A study of Mus musculus with 20 samples.

Results

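The transcripts described here come from 9 mouse genes that carry small nucleolar RNAs (snoRNAs) in their introns: Gas5, Snhg1, Snhg3, Snhg5, Snhg6, Snhg8, Snhg12, Zfas1 and Eif4a2. All rows whose gene symbol is one of these names were taken, whatever transcript type they carry, apart from rows of type snoRNA. This gave 15 rows of 72034 in one count table and the same 15 rows of 59035 in the other, for 8 of the 9 genes. Neither count table held a row under the symbol Zfas1. The RNA came from vesicles shed into the lumen of the cauda, the far end of the epididymis where sperm are stored (cauda epididymosomes), taken from male mice at 9 months of age and sequenced with a small RNA kit. The MSUS group held 5 males (animals 2, 4, 6, 8 and 14) whose litters underwent separation from the dam at unpredictable times, for 3 h on each of the 14 days after birth, while the dams were stressed. The Control group held 5 males (animals 3, 5, 7, 9 and 11) from litters left alone. No strain, transgene or drug is named for either group, and the labels do not say which animals shared a litter. The 10 libraries were sequenced in 2 runs, labelled with and without size selection, which gives 20 samples in 2 tables, called here the with-selection table and the without-selection table.

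A snoRNA host gene is transcribed as a longer RNA, and its snoRNAs are released from the introns after splicing. Box C/D snoRNAs guide methylation of the ribose, and box H/ACA snoRNAs guide conversion of uridine to pseudouridine, mostly in ribosomal RNA. Spliced Gas5 and other noncoding hosts of this kind are known to be degraded by nonsense-mediated decay during translation, and many begin with a terminal oligopyrimidine tract, as ribosomal protein mRNAs do. Eif4a2 differs from the other hosts in that its mature mRNA encodes a protein, an RNA helicase of translation initiation. In annotations such as GENCODE, host transcripts that keep an intron are typed "retained_intron".

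In the GENCODE vM21 annotation of GRCm38, Gas5 lies at chr1:161034422-161038539 on the plus strand, Snhg1 at chr19:8723475-8726443 (plus), Snhg3 at chr4:132348014-132353686 (minus), and Snhg5 at chr9:88521050-88522929 (minus). Snhg6 lies at chr1:9941959-9944118 (minus), Snhg8 at chr3:123507552-123508404 (minus), Snhg12 at chr4:132308623-132311024 (plus), Zfas1 at chr2:167062934-167065862 (plus) and Eif4a2 at chr16:23107444-23114136 (plus). Of the snoRNAs within these genes, 35 had a row in the tables. The one with most counts in the with-selection table is printed for each host, since the counts of most host rows went with those of the snoRNAs they contain. Sequences are from GENCODE vM21, 5′ to 3′. Capitals mark ATGATGA or GTGATGA, the letters searched as box C, starting within the first 16 bases, with CTGA, searched as box D, within the last 15. For RNAs over 110 bases, capitals mark ACA close to the 3′ end.
Gas5, Gm25789: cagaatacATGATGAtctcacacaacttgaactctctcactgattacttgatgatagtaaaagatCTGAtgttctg
Snhg1, Gm25894: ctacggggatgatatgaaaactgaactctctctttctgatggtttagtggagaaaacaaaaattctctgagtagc
Snhg3, Snora73b: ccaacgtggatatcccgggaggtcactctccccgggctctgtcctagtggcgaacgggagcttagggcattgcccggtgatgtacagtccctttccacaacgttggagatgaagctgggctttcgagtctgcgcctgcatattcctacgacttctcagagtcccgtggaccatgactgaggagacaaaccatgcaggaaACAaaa
Snhg5, Snord50a: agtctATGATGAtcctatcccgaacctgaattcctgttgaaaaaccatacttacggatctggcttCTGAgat
Snhg6, Snord87: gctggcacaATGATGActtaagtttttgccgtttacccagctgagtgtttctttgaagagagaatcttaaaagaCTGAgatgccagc
Snhg8, Snora24: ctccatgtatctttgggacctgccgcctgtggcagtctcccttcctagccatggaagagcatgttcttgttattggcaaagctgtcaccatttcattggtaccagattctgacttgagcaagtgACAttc
Snhg12, Snord99: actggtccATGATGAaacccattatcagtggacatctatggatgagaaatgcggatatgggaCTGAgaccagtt
Zfas1, Snord12: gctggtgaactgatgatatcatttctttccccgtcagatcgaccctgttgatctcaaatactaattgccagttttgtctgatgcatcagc
Eif4a2, Snord2: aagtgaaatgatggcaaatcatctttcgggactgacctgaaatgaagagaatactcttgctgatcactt
Of the 35 hosted snoRNAs, 18 held both box C and box D by these letters, 6 were over 110 bases and held the ACA, and 11 met neither rule. Among all 1558 snoRNAs of the annotation, 19.5% held both C and D, 40.4% held the ACA at over 110 bases and 40.1% met neither rule. Gm25894, Snord12 and Snord2 are among the 11, which can hold 1 of the letter runs but not both C and D.

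For Gas5, Snhg1, Snhg5, Snhg8 and Eif4a2, the printed snoRNA lies whole inside annotated retained_intron transcripts of the host. Snhg5 shows this in its plainest form, with 2 snoRNAs, each within 1 of its 3 retained_intron transcripts. The snoRNA is in capitals below and the flanking host transcript in lower case (GRCm38, minus strand, chr9:88521504-88521625 and chr9:88521772-88521869).
Snord50a in Snhg5: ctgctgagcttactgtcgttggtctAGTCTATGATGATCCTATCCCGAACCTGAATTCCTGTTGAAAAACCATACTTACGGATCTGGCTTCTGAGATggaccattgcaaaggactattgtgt
Snord50b in Snhg5: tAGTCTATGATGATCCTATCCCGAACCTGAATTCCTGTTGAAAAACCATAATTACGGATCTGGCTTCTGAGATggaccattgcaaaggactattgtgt
In Gas5, 16 of 20 retained_intron transcripts contain a snoRNA, in Snhg1 11 of 14, in Eif4a2 7 of 15, and in Snhg8 the only one. Snhg12 has no retained_intron row, and 8 of its 10 lincRNA transcripts contain a snoRNA. None of the annotated transcripts of Snhg3 or Snhg6 does, nor do the lincRNA transcripts of Gas5, Snhg1, Snhg5 and Snhg8 or the protein_coding transcripts of Eif4a2.

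The labels of the 2 tables conflict with their contents. Mature miRNAs made up 10.9 to 17.02% of a library in the with-selection table and 52.4 to 72.2% in the without-selection table, so the tables are called by their labels only. Totals ranged from 1872084 to 3647956 counts per library in the with-selection table and from 215231 to 871461 in the other. Rows named by an amino acid (tRNA) took 14.5 to 66.0% of counts in the with-selection table. MSUS 14, Control 9 and Control 11 had the lowest shares, at 23.8%, 14.5% and 25.3%. Marker lists for epididymal epithelium, sperm, blood cells, muscle and stroma, and extracellular vesicles were all detected, with Cst11 at 0 in the without-selection table.

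Host gene rows were abundant. Together the 15 rows took 0.461 to 2.69% of a library in the with-selection table and 0.0860 to 0.287% in the without-selection table. In the with-selection table the host rows of type retained_intron made up 29.0 to 43.1% of the counts on all rows of that type. Their share in the without-selection table was 6.33 to 14.3%. All rows of type snoRNA took 1.20 to 6.82% of a library in the with-selection table and the 35 hosted snoRNAs 0.247 to 1.54%. The host rows thus held more counts than their own snoRNA rows. Most of these host counts could be written as snoRNA counts multiplied by the number of host transcripts that hold them, as described below. The excess therefore cannot be read as more host transcript than snoRNA.

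For Gas5, Snhg1, Snhg5 and Eif4a2, nearly all counts sat on the row whose transcripts contain snoRNAs. Gas5 retained_intron, the most abundant, had 4752 to 37782 estimated counts per library in the with-selection table, and 99.9% of the counts on Gas5 rows were there. The Gas5 lincRNA row, the spliced form known as a growth-arrest transcript, had 4.51 to 21.4. Snhg1 retained_intron had 3534 to 28253 counts, against 15.9 to 77.5 on Snhg1 lincRNA. Snhg5 retained_intron had 1051 to 8276 counts, against 0.5 to 5.04 on Snhg5 lincRNA. Eif4a2 retained_intron had 2794 to 20515 counts, against 31.2 to 158 on the protein_coding row, 21.4 to 85.4 on the nonsense_mediated_decay row and 0.844 to 4.04 on the processed_transcript row. Snhg12 lincRNA, the only Snhg12 row, had 114 to 730 counts.

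Hosts of which no annotated transcript holds a snoRNA had few counts, however abundant their snoRNA. Snhg6 lincRNA had 1 to 10 counts per library, whereas the row of Snord87, which lies in a Snhg6 intron, had 279 to 2878. Snhg3 processed_transcript had 5.67 to 68.7 counts and its Snora73b 28.8 to 131. Snhg8 was low on both of its rows, with 2.83 to 51.8 counts on retained_intron and 1 to 10.2 on lincRNA, and its Snora24 was low as well (2 to 50 counts). Per kilobase of the longest annotated transcript, the mean TMM-scaled CPM (counts per 1e+06 counts) were 2250 for Gas5 retained_intron, 2197 for Eif4a2 retained_intron, 1543 for Snhg1 retained_intron and 1099 for Snhg5 retained_intron. Snhg12 lincRNA followed at 72.1 on the same scale, and the other 10 rows were at 18.8 or below. The ranges over libraries of the first 4 overlapped. Of the counts on these 4 rows, 98.8 to 99.7% could be written as sums of snoRNA counts, as described next. The values per kilobase therefore cannot be read as densities of host transcripts.

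Host row counts could be written as sums of snoRNA counts. For each host row, the count of each contained snoRNA was multiplied by the number of that host's transcripts that hold it, divided by the number of annotated entries of that snoRNA name, and added up. This sum came to 98.8% of the Gas5 retained_intron counts in the with-selection table (98.4 to 99.0% per library), 99.0% for Snhg1, 99.7% for Snhg5 and 99.4% for Eif4a2. Snord2 alone, which 3 Eif4a2 transcripts contain, made up 99.2% of the sum for Eif4a2, and Gm25789 55.5% of that for Gas5. In the without-selection table the sums came to 84.5% for Gas5, 97.5% for Snhg1, 98.2% for Snhg5 and 90.5% for Eif4a2. Snhg8 retained_intron was at 91.6% and 95.8% in the with-selection table and in the other. Snhg12 lincRNA was the exception, as its sum reached 189% and 210% of the row. How reads were divided among overlapping annotations is not stated in the sources used here. Whether a read came from a snoRNA or from the host transcript around it cannot be told apart in these counts. Snord50a and Snord50b each share their sequence with 1 other annotated snoRNA, so the Snhg5 values are uncertain for that reason too.

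**Figure D1:**
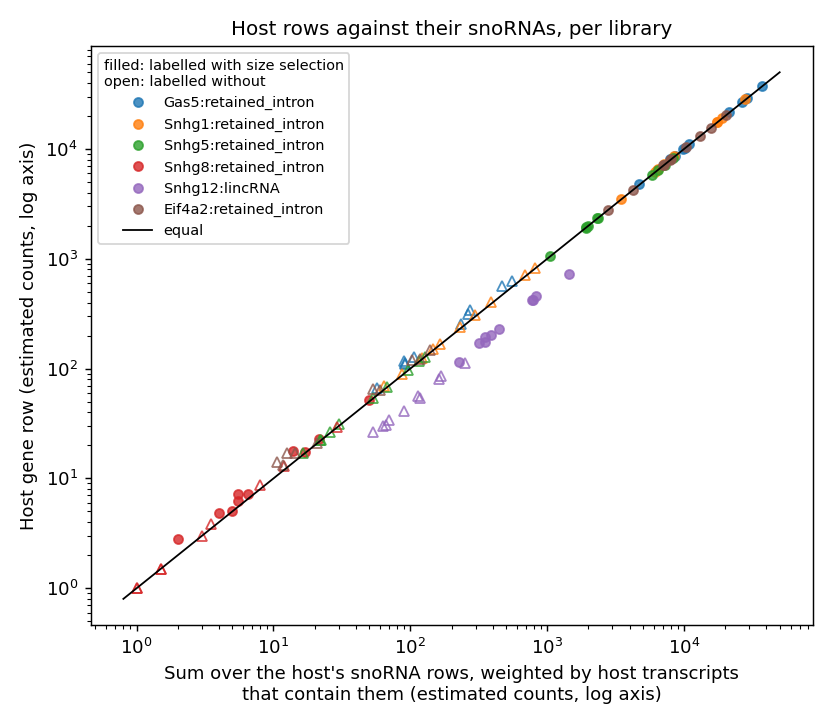
Estimated counts of 6 host gene rows (vertical, log axis) against the weighted sum of the counts of the snoRNAs they contain (horizontal, log axis). Each point is 1 library, filled for the with-selection table and open for the other, and the line marks equality. In the with-selection table Gas5, Snhg1, Snhg5 and Eif4a2 lie close to the line, and Snhg12 lies below it in both tables. The open points of Gas5 and Eif4a2 lie above the line, with sums of 77.8 to 91.4% and 72.3 to 98.1% of the row.

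In the comparison of MSUS with Control, no host row passed the test. edgeR's quasi-likelihood test with Benjamini-Hochberg adjustment called 0 of 10998 features in the with-selection table (0% called) and 0 of 1075 in the without-selection table (0% called). Of the 15 rows, 10 passed the filter on low counts in the with-selection table and 5 in the other. With TMM scaling, 9 of the 10 rows had a positive log2 fold change (all features 49.8%), with a median of +0.35 where the median of all features was -0.00. All 5 were positive in the without-selection table (all features 50.3%), with a median of +0.27. These directions depend on the scaling: with library size only, 1 of 10 and 2 of 5 rows were positive, with medians of -0.24 and -0.07, while the median of all features moved to -0.58 and -0.30. No host row had every MSUS library above every Control library, against 0.391% of all features in the with-selection table and 0% in the other. DESeq2 called 33 features in the with-selection table and 0 in the other, none of them a host row. These are bulk vesicle preparations, so fewer vesicles of a kind and less RNA per vesicle cannot be told apart. The epididymal epithelium list summed to 876 to 3460 CPM, unscaled, in MSUS libraries and 2340 to 5280 in Control libraries of the with-selection table, and its part in the results was not tested.

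Eif4a2 retained_intron had the largest positive fold changes among the host rows with TMM scaling. In the with-selection table it had 5948, 5570, 4663, 2585 and 3287 CPM in MSUS animals 2, 4, 6, 8 and 14, against 1966, 3952, 2785, 3432 and 2176 CPM in Control animals 3, 5, 7, 9 and 11. MSUS 2, 4 and 6 lay above every Control library, and MSUS 8 and 14 lay within the Control range. The means were 4411 ± 1446 CPM in MSUS and 2862 ± 835 CPM in Control (SD, n = 5 each), a log2 fold change of +0.62 (SE 0.30) with an adjusted p of 0.863 by edgeR. It had, in the without-selection table, 73.0, 376.8, 144.2, 125.1 and 100.5 CPM in MSUS libraries, against 51.6, 55.9, 55.1, 148.4 and 171.5 CPM in Control libraries. MSUS 4 stood far above all others, and the groups overlapped. The log2 fold change was +0.70 (SE 0.44, adjusted p = 0.593 by edgeR). It was +0.11 (adjusted p = 0.935) without MSUS 4 and +1.72 (adjusted p = 0.0807) without Control 9, Control 11 and MSUS 14. With library size only it was +0.36 here and +0.03 (SE 0.36, adjusted p = 0.938) in the with-selection table.

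The Eif4a2 rows that contain no snoRNA were close in the 2 groups with TMM scaling. Eif4a2 protein_coding, the helicase mRNA, had 24.3, 30.4, 29.0, 28.7 and 25.5 CPM in MSUS libraries and 22.6, 34.3, 31.0, 26.4 and 26.5 CPM in Control libraries of the with-selection table. The groups lay on top of each other, with a log2 fold change of -0.04 (SE 0.13, adjusted p = 1). Eif4a2 nonsense_mediated_decay was at +0.04 (SE 0.15, adjusted p = 1). With library size only, protein_coding was at -0.63 (SE 0.36) and nonsense_mediated_decay at -0.55 (SE 0.37), where the median of all features was -0.58. The ratio of retained_intron counts to the summed protein_coding and nonsense_mediated_decay counts of Eif4a2 does not depend on the scaling of the library. In the with-selection table, 99.4% of these retained_intron counts could be written as snoRNA counts. Snord2 made up 99.2% of that sum. The ratio therefore cannot be read as a measure of intron retention. In the with-selection table its log2 averaged 6.57 ± 0.58 in MSUS and 5.98 ± 0.29 in Control (SD, n = 5 each), a difference of +0.59 with p = 0.0952 in a two-sided exact permutation test. The ratio of retained_intron to lincRNA differed by +0.37 for Gas5 (exact permutation p = 0.302) and by +0.02 for Snhg1 (exact permutation p = 0.937). The same limit holds for Gas5 and Snhg1, where snoRNA sums came to 98.8% and 99.0% of the retained_intron rows. These ratios were chosen after the values were seen, their p-values are unadjusted, and the smallest p that 5 against 5 allows is 0.00794. Of 6 such ratios, those of the without-selection table are not given, since the rows they divide by were too low to test there. Eif4a2 protein_coding had as few as 0.33 counts in a library, in MSUS 8, and Gas5 lincRNA 0.49, in MSUS 2.

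Snhg12, a noncoding host of box H/ACA snoRNAs and of Snord99, was the only host row with an unadjusted p under 0.05, 1 of 10 where 5.77% of all features had one. It had 159.7, 124.6, 131.7, 105.5 and 105.8 CPM in MSUS libraries, against 90.1, 84.7, 91.1, 122.1 and 94.1 CPM in Control libraries of the with-selection table. All MSUS libraries lay above 4 of the 5 Control libraries, and Control 9 lay among the MSUS values. The means were 125 ± 22.3 and 96.4 ± 14.8 CPM (SD, n = 5 each), MSUS first. The edgeR log2 fold change was +0.38 (SE 0.15, unadjusted p = 0.0218, adjusted p = 0.839), and -0.24 with library size only. Snhg12 averaged 139 ± 21.8 CPM in MSUS and 128 ± 28.8 CPM in Control of the without-selection table, at +0.09 (SE 0.22), and 0 of 5 host rows had an unadjusted p under 0.05, against 7.91% of all features.

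Gas5 retained_intron had 8261, 6139, 6617, 4397 and 6733 CPM in MSUS libraries, against 3735, 5394, 3901, 6320 and 6008 CPM in Control libraries of the with-selection table. MSUS 2, 6 and 14 lay above every Control library and the groups overlapped, at +0.34 (SE 0.27, adjusted p = 0.919 by edgeR). Gas5 averaged 624 ± 161 CPM in MSUS and 516 ± 186 CPM in Control of the without-selection table (SD, n = 5 each), at +0.27 (SE 0.28). Gas5 lincRNA, the row without snoRNAs, averaged 3.75 ± 0.644 and 3.69 ± 0.555 CPM in MSUS and Control of the with-selection table, at +0.01 (SE 0.20).

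Snhg1 retained_intron had 6681, 4670, 5533, 3270 and 4365 CPM in MSUS libraries, against 2864, 3167, 2847, 4726 and 3958 CPM in Control libraries of the with-selection table. MSUS 2 and 6 lay above every Control library, at +0.48 (SE 0.26, adjusted p = 0.879 by edgeR). Snhg1 lincRNA was at +0.35 (SE 0.21, adjusted p = 0.882). In the other table the retained_intron row averaged 678 ± 193 CPM in MSUS and 619 ± 298 CPM in Control (SD, n = 5 each), at +0.12 (SE 0.32).

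Snhg5 retained_intron had 2199, 1368, 1509, 972 and 1801 CPM in MSUS libraries, against 890, 1158, 786, 1384 and 1345 CPM in Control libraries of the with-selection table. MSUS 2, 6 and 14 lay above every Control library, at +0.50 (SE 0.25, adjusted p = 0.879 by edgeR). In the other table it averaged 144 ± 24.8 CPM in MSUS and 110 ± 36.6 CPM in Control (SD, n = 5 each), at +0.36 (SE 0.25). Snhg3 processed_transcript, tested in the with-selection table, averaged 8.49 ± 1.18 and 6.35 ± 3.29 CPM in MSUS and Control, at +0.24 (SE 0.30). It was +0.69 without Control 9 (adjusted p = 0.58 by edgeR) and +0.077 without Control 7. With library size only, the retained_intron rows of Gas5, Snhg1 and Snhg5 and the rows of Snhg3 and Snhg1 lincRNA were all negative in that table, between -0.33 and -0.04.

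**Figure D2:**
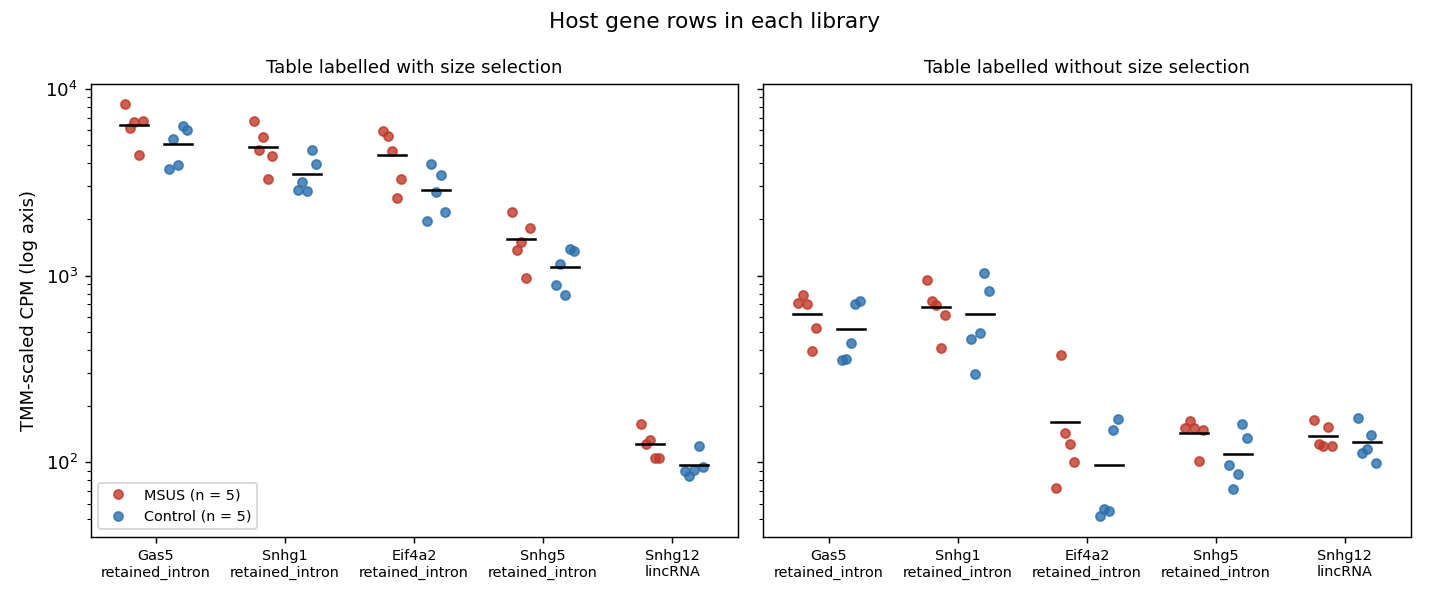
TMM-scaled CPM (log axis) of 5 host gene rows in each library, for the with-selection table (left) and without (right). Points are libraries, red for MSUS and blue for Control (n = 5 each), and bars are means. MSUS and Control overlap for every row, and the retained_intron rows are higher on the left while Snhg12 is not.

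**Figure D3:**
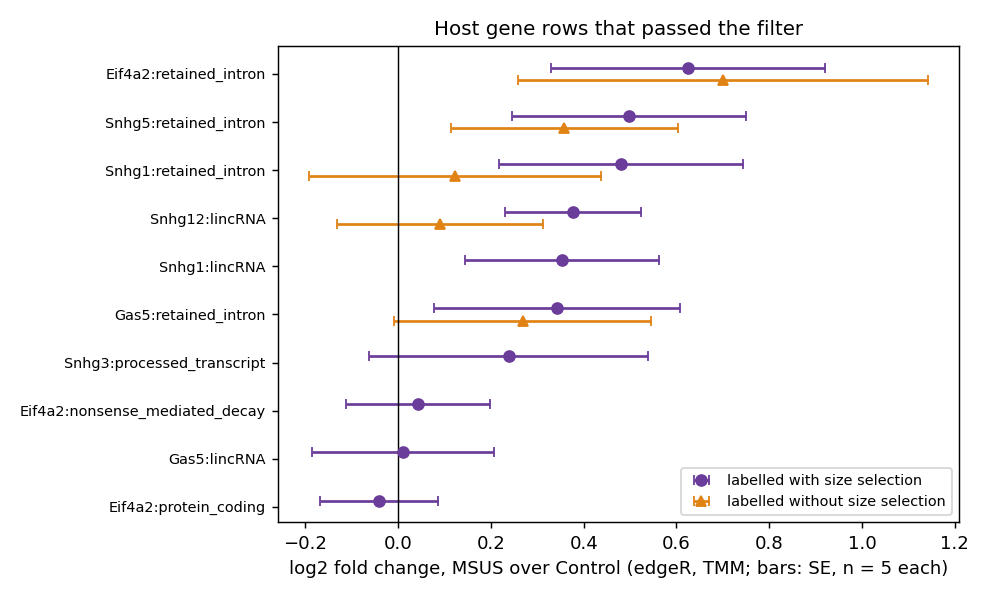
Log2 fold change of MSUS over Control with TMM scaling (horizontal) for each host gene row that passed the filter; bars are SE and n = 5 each. Eif4a2 retained_intron lies farthest to the right in both tables, at +0.62 and +0.70, and no row passed the adjusted threshold.

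The gene totals, with rows summed by symbol, gave the same picture. For 7 of the 9 genes the total passed the filter in the with-selection table and for 5 in the other, and edgeR called 0 of 9571 genes (0% called) and 0 of 1198 (0% called). Of the 7 totals, 1 had an unadjusted p under 0.05, against 6.36% of all genes, and 0 of 5 did in the other table, against 7.76%. Snhg8, which could be tested only as a total, averaged 5.47 ± 2.07 CPM in MSUS and 6.18 ± 2.48 CPM in Control (SD, n = 5 each), at -0.17 (SE 0.29), and +0.16 without Control 9.

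The snoRNAs within the hosts were close to their host rows in this comparison. With TMM scaling, 27 of the 29 tested in the with-selection table had a positive log2 fold change, where 49.8% of all features did, with a median of +0.35. An unadjusted p under 0.05 was found for 10 of the 29, against 5.77% of all features, while 3 of 29 were positive with library size only. Gm23246 of Snhg1 was highest at +0.85 (SE 0.22, adjusted p = 0.839 by edgeR), and Snord2 of Eif4a2 was at +0.63 (SE 0.28, adjusted p = 0.845). Of the 10 tested in the without-selection table, 9 were positive with TMM scaling and 3 with library size only. Snord87 of Snhg6 was at +0.66 there (SE 0.29, adjusted p = 0.554). The host rows hold much of the same counts, so these are not separate measurements.

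Other genes of the same pathway were tested as totals. Of 15 other noncoding hosts 5 passed the filter in the with-selection table and all 5 were positive with TMM scaling, 1 with library size only. Rian, an imprinted host, averaged 12.2 ± 5.68 CPM in MSUS and 7.21 ± 1.62 CPM in Control (SD, n = 5 each; +0.66, SE 0.27, adjusted p = 0.77 by edgeR), and Snhg20 was at +0.42 (SE 0.23). Of 39 tested protein-coding hosts 28 were positive with TMM scaling and 0 with library size only, with Rpl21, a ribosomal protein gene, at +0.42 (SE 0.17, adjusted p = 0.77) and Rps12 at +0.34. Of 13 genes for snoRNP proteins 10 were positive with TMM scaling and 0 with library size only. Fbl, the methyltransferase of box C/D particles, was at +0.49 (SE 0.21, adjusted p = 0.77), and Nolc1, a nucleolar chaperone, at +0.27. Nonsense-mediated decay factors were positive in 5 of 10 with TMM scaling and in 0 with library size only, with Upf2 at +0.28 and Smg9 at -0.26. Factors that act with eIF4A or bind terminal oligopyrimidine mRNAs were positive in 3 of 9 and in 0 with library size only, with Eif4h at -0.21 (SE 0.10) and Larp4 at -0.15. None of these genes was called, and the medians of the 5 lists were +0.42, +0.05, +0.15, +0.01 and -0.05 with TMM scaling. Over all 9571 genes tested the median was -0.004 with TMM scaling and -0.573 with library size only.

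Fewer of these genes could be tested in the without-selection table. Over all 1198 genes tested in it, the median log2 fold change was -0.029 with TMM scaling and -0.322 with library size only. There, 21 protein-coding hosts were tested, of which 9 were positive with TMM scaling and 2 with library size only, and 6 eIF4A and terminal oligopyrimidine factors, of which 1 and 0 were. Nop56 was the only snoRNP protein gene tested (-0.26), and 0 other noncoding hosts or decay factors were. Larp1, which binds the terminal oligopyrimidine tract, averaged 24.8 ± 8.18 CPM in MSUS and 52.7 ± 4.67 CPM in Control (SD, n = 5 each). Its edgeR log2 fold change was -1.15 (SE 0.26, unadjusted p = 0.000282, adjusted p = 0.337), over all genes tested. In the with-selection table all 9 eIF4A and terminal oligopyrimidine factors were tested. Larp1 was not among the 2 of smallest p there, which were Eif4h and Larp4 (unadjusted p = 0.0427 and 0.145 by edgeR). Back in the without-selection table, Hspa9, a chaperone gene with intronic snoRNAs, was at -0.68 (SE 0.27, adjusted p = 0.55 by edgeR). Eif4g2 was at -0.33 and Eif4b at -0.36 in the same table.

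The clearest differences lay between the 2 tables. They were tested over all 20 samples, without the animal as a replicate block. Over all features 2801 of 8109 were called (34.5%), of which 1502 (18.5% of all tested) were higher in the with-selection table and 1299 (16%) lower, with a median of +0.10. Of the 10 host rows tested, 5 were called higher and 2 lower. All 4 of the abundant retained_intron rows were higher in the with-selection table. Eif4a2 averaged a log2 difference of +3.99 (SE 0.30, adjusted p = 3.88e-12 by edgeR), above 99.9% of all features. Snhg5 was at +2.60 (SE 0.20, adjusted p = 3.64e-12), Gas5 at +2.56 (SE 0.21, adjusted p = 2.32e-11) and Snhg1 at +1.91 (SE 0.22, adjusted p = 3.92e-08). Snhg8 retained_intron was lower in the with-selection table, at -2.33 (SE 0.37, adjusted p = 1.72e-05). Snhg12 lincRNA was lower too, at -1.01 (SE 0.13, adjusted p = 1.15e-07), but not with library size only (-0.08, adjusted p = 0.747), where the median of all features moved to +1.04 and 90.1% of calls were higher, against 53.6% with TMM.

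Rows without a snoRNA had smaller differences between the tables with TMM scaling, but were too low to pass the filter in the without-selection table alone. Their median counts per library there were 3.89 for Eif4a2 protein_coding, 2.60 for Eif4a2 nonsense_mediated_decay, 2.47 for Snhg1 lincRNA and 1.25 for Snhg3. Eif4a2 protein_coding was at +0.58 (SE 0.20, adjusted p = 0.0229 by edgeR), a call lost without MSUS 14 (adjusted p = 0.0643) or without Control 11 (adjusted p = 0.0556). Eif4a2 nonsense_mediated_decay was at +0.49 (adjusted p = 0.163), Snhg3 at +0.36 (adjusted p = 0.572) and Snhg1 lincRNA at +0.22 (adjusted p = 0.571). With library size only, under the shift of the median given above, 5664 of all 8109 features were called higher. Eif4a2 nonsense_mediated_decay, Snhg3 and Snhg1 lincRNA were then called, at +1.41 (adjusted p = 9.79e-05 by edgeR), +1.24 (adjusted p = 0.00847) and +1.15 (adjusted p = 0.00159). Eif4a2 protein_coding was at +1.51.

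The snoRNAs inside the hosts were tested in the same fit. All 17 tested snoRNAs with both box C and box D were higher in the with-selection table and called, with a median of +2.44 (+0.48 to +4.06). The 4 tested with the ACA letters were all negative with TMM scaling (-2.38 to -0.26), and 3 were called. With library size only, Snora24 was called lower (-1.33), Snora73b was called higher (+0.60, adjusted p = 0.0472 by edgeR), and Snora73a (-0.07) and Snora16a (-0.09) were not called. Of the 8 tested that met neither rule, 6 were called higher and 1 lower with TMM scaling. By length, a split chosen after the values were seen, all 22 tested hosted snoRNAs under 100 bases (60 to 93 bases) were called higher, with TMM scaling and with library size only. Over all 8109 features, 1502 were called higher with TMM scaling and 5664 with library size only. Of the 7 tested at 100 bases or more, 1 was called higher and 4 lower with TMM scaling, and 2 higher and 2 lower with library size only. The longer one called higher was Snord22 of Snhg1, of 126 bases, at +0.86.

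Values of hosts and of snoRNAs inside them stand side by side here, with TMM scaling. Snord2, of 69 bases, was at +4.39 (SE 0.34, adjusted p = 1.4e-11 by edgeR) beside Eif4a2 retained_intron at +3.99. Gm25789 was at +3.07 (SE 0.22) beside Gas5, Snord50a at +2.91 (SE 0.20) beside Snhg5, and Gm25894 at +1.71 (SE 0.18) beside Snhg1. Gm25894 had most counts on its own row, but Gm23246 led the weighted sum for Snhg1, at 30.45% in the with-selection table. Gm23246 was at +1.70 (SE 0.23). Snora24, of 130 bases, was at -2.38 (SE 0.39) beside Snhg8 retained_intron at -2.33, both on few counts. Snhg12 holds both kinds, with Snora44 (129 bases) at -2.60 (SE 0.14) and Snord99 (74 bases) at +0.48 (SE 0.19, adjusted p = 0.0454). The introns of Zfas1, which had no host row in either count table, hold Gm25878, Gm23201 and Snord12, which were at +3.14, +3.00 and +3.36.

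**Figure D4:**
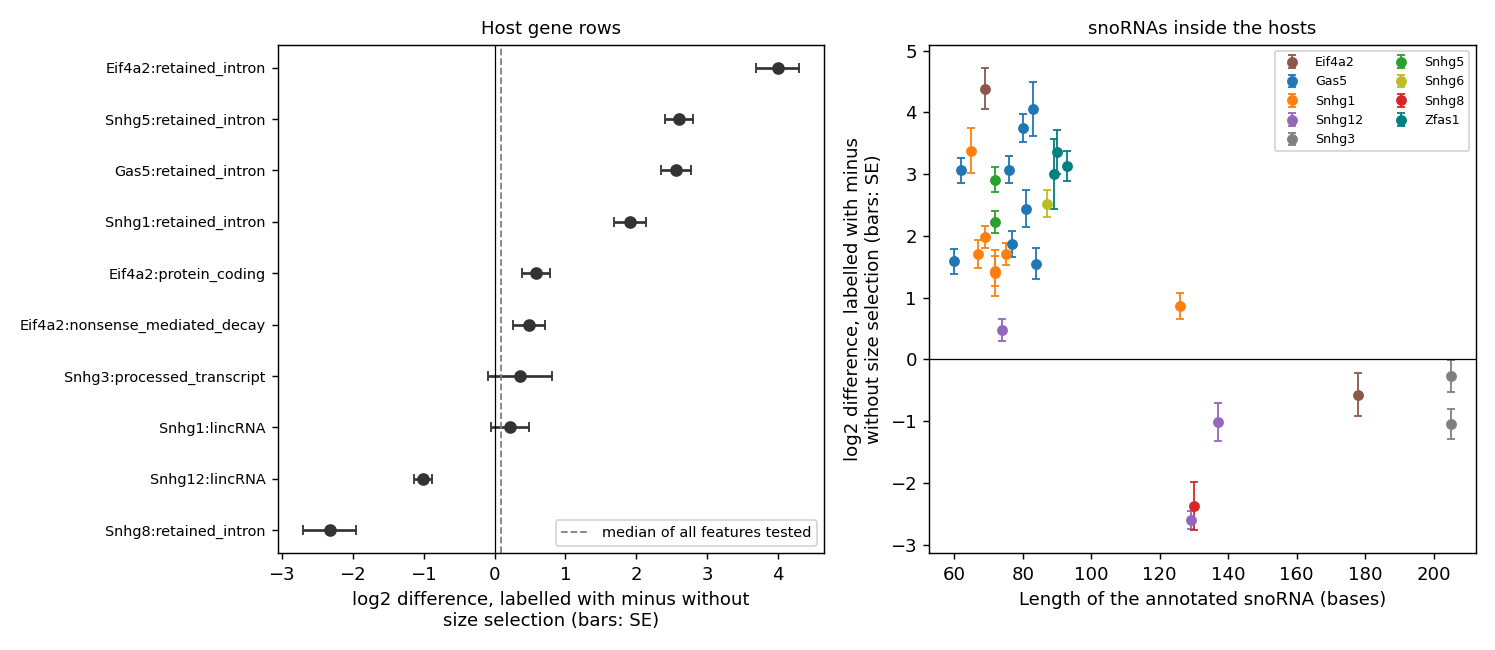
Log2 difference between the tables, labelled with minus without size selection, by edgeR with TMM scaling; bars are SE. The left panel gives the host gene rows, with the median of all features dashed, and the right panel the snoRNAs inside the hosts against their annotated length in bases, coloured by host. All snoRNAs under 100 bases lie above 0, and those of 129 bases or more lie below.

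Whether the MSUS effect differs between the tables was tested with an interaction term, also without the animal as a replicate block. edgeR called 0 of 8109 features (0% called), and 2.75% had an unadjusted p under 0.05. None of the 10 host rows did, and their adjusted p-values were all 1. For Eif4a2 retained_intron the effect differed by -0.13 (SE 0.57) and for Gas5 retained_intron by +0.02 (SE 0.41).

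Across the 10 libraries, the genes whose profile was most like that of the summed hosts were Snord50a and Snord50b of Snhg5 and genes with the same r as these. The measure was the smaller of the 2 tables' Pearson r of log2(CPM + 1), over 1192 symbols tested in both tables. The first 5 were 9330159M07Rik, Gm26135, Snord50b, Snord50a and Gm24463, with r of 0.923 to 0.924 over 10 libraries. The first 3 had the same r in each table, as did the last 2, so they make up 2 profiles. Snord50a and Snord50b lie within Snhg5 and share counts with it, and each has the same sequence as 1 other annotated snoRNA. The summed hosts include these shared counts, so a high r was built in. None of the first 5 thus gives a likeness apart from the Snhg5 counts. The libraries also share the scaling factors of the fit.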

How the data were processed

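Cauda epididymosomes were pelleted by ultracentrifugation at 120000 rcf and their small RNA was sequenced with an NEBNext kit, per the labels' protocols. The authors deposited 2 tables of estimated counts for annotated RNAs, with many fractional values. The submitters' processing notes name STAR, edgeR and GRCm38, and the step from reads to these counts is not described in the sources used here. Host rows were matched by symbol, and snoRNAs within hosts by GENCODE vM21. Estimated counts were rounded, which removed 0.0504 to 0.0992% of counts in the with-selection table and 0.266 to 0.689% in the other. Each table was fitted alone with edgeR 4.0.16 in R 4.3.3 (filterByExpr, TMM, robust quasi-likelihood test, Benjamini-Hochberg over all features, threshold 0.05), and all 20 samples together for the difference between tables. The SE was derived from the F statistic. DESeq2 1.42.0, other scalings, no filter, leaving out libraries and a replicate block by animal were alternatives. The fits were tested on simulated counts. Permutation tests used SciPy 1.17.1.

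The members, lists and tests were chosen with earlier results of these data known. Named rows are those that passed the filter, the snoRNA with most counts per host and, per pathway list, the 2 genes of smallest p. Groups and animal numbers come from the titles. The same animal number marks the same library in both tables, and over 1074 features the deviations of same-numbered samples correlated at r = 0.346 to 0.751, with 9 of 10 animals closest to themselves (highest r between animals 0.549). Within a table the p-values rest on the spread between these animals, which may have shared litters. The main fits between tables and for the interaction had no animal term, so the 2 samples of an animal were treated as independent. For Gas5 retained_intron the SE of the interaction was 0.41 in that fit and 0.25 with the animal as a replicate block. The number of counts limits precision most in the without-selection table, where 10 of the 15 host rows were too low to test.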

Additional observations from a re-analysis of the deposited data

Results flagged for a closer look

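In 3 of 30 groups of 5 libraries, 1 library lay far from the others of its group relative to the group's range, where chance gives about 1 in 20. Snhg12 lincRNA in Control 9 had 122.1 CPM in the with-selection table, the highest of its group, with the next at 94.08 CPM. Eif4a2 retained_intron in MSUS 4 had 376.8 CPM in the without-selection table, the highest of its group, with the next at 144.2 CPM. Snhg5 retained_intron in MSUS 8 had 101.2 CPM in the without-selection table, the lowest of its group, with the next at 149.3 CPM. Control 9 had the lowest tRNA share of the with-selection table (14.5% of counts) and MSUS 8 the highest (66.0%), and the part of these shares in the 3 values was not tested.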

How the results depend on the processing

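In the with-selection table, the count of 0 called features for MSUS against Control became 3 with library size only, 48 with no filter and 33 with DESeq2, and 0 to 2 with 1 library left out (2 without Control 3). In the without-selection table it became 1 with library size only and 2 without Control 9, Control 11 and MSUS 14. The count of 0 genes called on gene totals became 2 with library size only, 20 with no filter and 1 with DESeq2 in the with-selection table, and 0 to 9 with 1 library left out (9 without MSUS 14, 1 without Control 3). In the other table it became 2 without Control 9, Control 11 and MSUS 14. Between tables, 6287 features were called with library size only, and 2409 to 2866 with 1 animal left out. The cause was not tested. With the animal as a replicate block 3020 features were called between tables and 0 for the interaction, no call of a host row changed, and the interaction for Gas5 retained_intron turned to -0.014.

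With library size only, the MSUS fold change of Eif4a2 protein_coding, negative with TMM scaling too, was -0.63 in the with-selection table. The fold changes there were also negative for Gas5 retained_intron (-0.23), Snhg1 retained_intron (-0.13), Snhg5 retained_intron (-0.041), Snhg12 (-0.24), Snhg1 lincRNA (-0.24), Eif4a2 nonsense_mediated_decay (-0.55), Snhg3 (-0.33) and Gas5 lincRNA (-0.59). The totals of Gas5 (-0.22), Snhg1 (-0.12), Snhg12 (-0.24), Snhg3 (-0.32) and Snhg5 (-0.035) were too. In the other table Snhg1 (-0.25), Gas5 (-0.071) and Snhg12 (-0.22) were negative, as were the totals of Gas5 (-0.065), Snhg1 (-0.24) and Snhg12 (-0.22). The interaction of condition and table turned negative for Eif4a2 nonsense_mediated_decay (-0.085), Eif4a2 protein_coding (-0.062), Gas5 retained_intron (-0.20), Snhg1 lincRNA (-0.034), Snhg12 (-0.062) and Snhg5 retained_intron (-0.11). With no filter, Eif4a2 nonsense_mediated_decay was at -0.034 and Gas5 lincRNA at -0.055 in the with-selection table, and Snhg1 retained_intron at -0.0062 in the other. Without Control 9, Control 11 and MSUS 14, Eif4a2 nonsense_mediated_decay (-0.034), the Snhg8 total (+0.22) and Snhg12 in the without-selection table (-0.0091) changed sign.

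With 1 library left out at a time, fold changes that changed sign ran from -0.098 to +0.027 for Eif4a2 protein_coding, from -0.012 to +0.12 for Eif4a2 nonsense_mediated_decay, from -0.086 to +0.059 for Gas5 lincRNA and from -0.38 to +0.16 for the Snhg8 total in the with-selection table. In the other table they ran from -0.066 to +0.38 for Snhg1 retained_intron, from -0.047 to +0.40 for its gene total and from -0.026 to +0.19 for Snhg12.

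Eif4a2 retained_intron was at +0.03 with library size only in the with-selection table and at +0.11 without MSUS 4 in the other, where its gene total was at +0.025. Between tables, 3 host rows without a snoRNA were called only with library size only, where 5664 of all 8109 features were called higher. The SE of 0.13 to 0.44 on the log2 scale limits what 5 animals a group can show.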
